A study of Drosophila melanogaster with 2 samples.

Results

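The anterior and posterior enterocytes (apEC) of the adult fly midgut were the cells that the authors' deposited annotation placed in the class of that name. They numbered 81 of 4184 cells, with 43 of 2711 in the day 1 library and 38 of 1473 in the day 3 library. Both libraries came from midgut epithelial cells of Canton S (wild type) females of Drosophila melanogaster, at 1 and 3 days of age, and were made with 10x Genomics v3.1 droplet chemistry, which counts unique molecular identifiers (UMIs). Each age had 1 library, so no difference between the ages has a replicate check and no p-value was computed. The comparison classes were the middle midgut enterocytes (mEC, 29 and 22 cells), and the intestinal stem cell (ISC) and enteroblast (EB) classes ISC1, ISC2, EB1, EB2 and EB3, which held 2199 and 1217 cells together. Classes were made from the same expression values, so every difference between classes is given as a description and not as a test.

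Enterocytes are the large absorptive cells of the midgut and arise from stem cells by way of enteroblasts. They secrete the digestive peptidases and carbohydrases into the gut lumen and take up the products, and the kinds of enzyme differ along the gut from front to back. The middle midgut holds the acid-secreting copper cell region, which separates the anterior and posterior regions. The Jonah genes (Jon) and the trypsin genes (Try) encode secreted serine peptidases that cut dietary protein and lie in tandem clusters in the genome.

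The annotation and the deposited clustering gave nearly the same set of cells. All 81 cells lay in deposited cluster 5, which held 2 other cells, and all 81 carried the transferred label of the same name, with a lowest transfer score of 0.612 and a median of 1. The class made up 1.59% of the day 1 cells (95% exact binomial interval 1.15 to 2.13) and 2.58% of the day 3 cells (1.83 to 3.52), where the intervals cover counting error only. Dissociation and cell capture can set such shares, and their part was not tested. The cells held medians of 28265 and 34403 UMIs, from 3019 to 138293 at day 1 and from 5378 to 278230 at day 3. Of all cell barcodes, 1 occurred in both libraries, and none of the enterocytes carried it. Levels are given below as the depth-corrected count per 10000 of the cell's corrected total, averaged over the cells of a class. Fold changes are on the log2 scale after 0.1 per 10000 was added to both means. The kit reads transcripts at the 3′ end, so UMI counts do not grow with transcript length and levels were compared between genes without a length correction.

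The label was first set against the marker genes. The trypsin gene betaTry was the most abundant gene of the class, with a mean of 553 per 10000 at day 1 and 631 at day 3. Its level ran from 0.268 through a median of 22.8 to 2162 among the day 1 cells, and from 0 through 315 to 2038 among the day 3 cells. The Jonah gene Jon25Biii ran from 0 through 1.87 to 484 at day 1 and from 0 through 2.58 to 2774 at day 3. The Jonah gene Jon99Fii ran from 0 through 0.791 to 727 at day 1 and from 0 through 0.142 to 712 at day 3. The medians of Jon25Biii and Jon99Fii lay far below their means (65.7 and 176, and 56.5 and 102), because a minority of cells carried most of their transcripts.

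Of the 5 general enterocyte markers, all were detected in both libraries, with a summed level averaging 18.7 and 23.9 per 10000 against 2.66 and 3.08 in the ISC and EB cells. Ssk and Tsp2A, which encode smooth septate junction proteins of the gut lining, stood at 10.5 and 13.6 and at 6.66 and 8.34. nub, the POU transcription factor of enterocytes, averaged 0.515 and 0.789 and was above 0 in 22 of 43 and 27 of 38 cells. These genes were not particular to the class, since the EB2 class averaged 1.16 and 1.17 for nub, 6.49 and 8.51 for Ssk and 4.85 and 6.21 for Tsp2A. The posterior homeobox gene cad was above 0 in 5 cells of each library, with a mean of at most 0.106. The position markers used here therefore did not tell anterior from posterior cells. Short lists of muscle, blood, fat body, neuron and tracheal markers summed to means of at most 0.772 in either library. The longer list of 18 blood cell and fat body markers summed to 2.22 and 0.835, with single cells up to 57.8 and 25.3, of which the Turandot gene TotA made up 1.91 and 0.835. The longer visceral muscle list summed to 0.845 and 0.331.

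The marker genes did not mark the same cells. Dividing the class at 100 per 10000 for betaTry and at 20 for Jon99Fii, limits chosen after the values were seen, gave 21 of 43 day 1 cells and 20 of 38 day 3 cells with betaTry only. Jon99Fii alone passed its limit in 6 day 1 cells, or 14.0% (95% exact binomial interval 5.30 to 27.9), and in 10 day 3 cells, or 26.3% (13.4 to 43.1). No cell of either library passed both limits, where a count of 0 allows up to 6.98% of the day 1 cells and 7.89% of the day 3 cells. The remaining 16 and 8 cells passed neither limit.

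**Figure D1:**
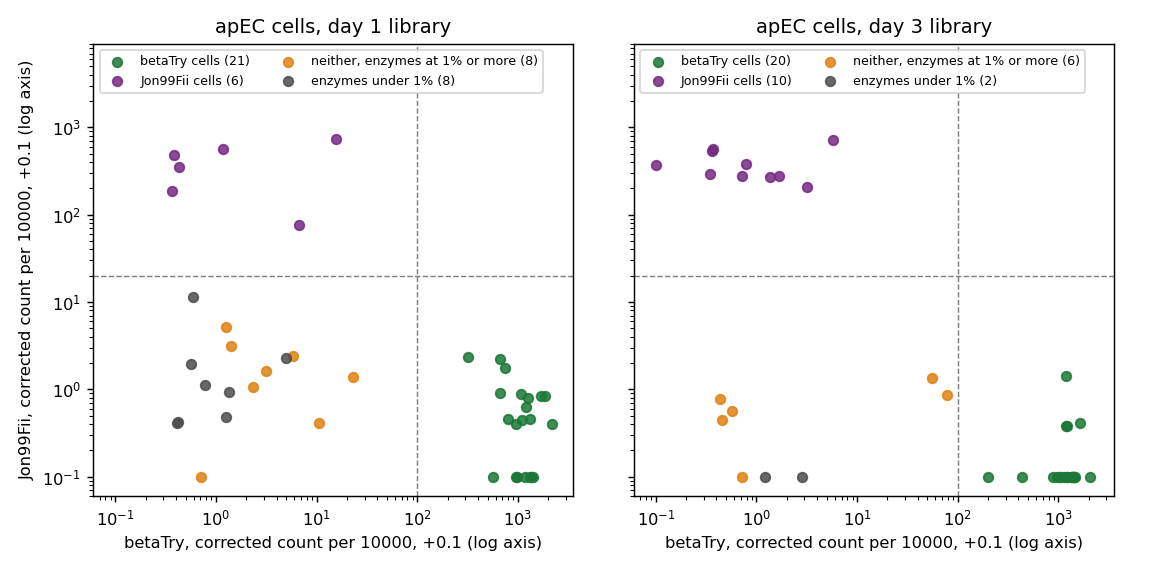
betaTry against Jon99Fii in each apEC cell of the day 1 and day 3 libraries, both as corrected count per 10000 plus 0.1 on log axes, with dashed lines at 100 and 20. The upper right field, where a cell would have both genes, holds 0 of 43 and 0 of 38 cells.

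The separation was close to complete in level as well. In the betaTry cells, betaTry had a mean of 1128 per 10000 at day 1 (lowest 319, highest 2162) and 1192 at day 3 (198 to 2038), while Jon99Fii averaged 0.574 and 0.111 and stayed at or under 2.27. In the Jon99Fii cells, Jon99Fii averaged 397 (76.5 to 727) and 389 (206 to 712), while betaTry had medians of 0.699 and 0.656 and stayed at or under 15.5. Across all cells of the class the rank correlation of betaTry and Jon99Fii was -0.54 at day 1 (43 cells) and -0.64 at day 3 (38 cells). In the 22 cells of each library above the median depth of all cells, 28085.5 UMIs, it was -0.57 and -0.71. The values within a cell share its total, so a gene that takes a large part of it lowers all others, and these correlations are descriptions of 1 library each. Median depths of the betaTry and Jon99Fii cells were 29436 and 68107 UMIs at day 1, and 52705 and 34105 at day 3, so neither set was the deeper in both libraries.

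The genes that went with betaTry were then counted. Of the 802 genes that averaged 1 per 10000 or more in each library, 48 had a rank correlation of at least 0.5 with betaTry in both. The peptidase and carbohydrase lists held 13 of them, or 27.1%, and 42 of the 801 genes other than betaTry, or 5.24%. The 10 highest by the lower of their correlations in the 2 libraries were Jon65Aiii, alphaTry, epsilonTry, CG12374, CG43055, CG5107, CG4363, Mal-A6, Phae1 and CG6484. alphaTry and epsilonTry are trypsins, and Mal-A6 is a maltase that cuts disaccharides. epsilonTry averaged 198 and 246 in the betaTry cells and 0 and 0.0656 in the Jon99Fii cells. CG12374, listed here among the carboxypeptidases, averaged 233 and 243 against 0.195 and 0.201. The glucosidase gene tobi, known as a target of the sugar and protein response of the gut, averaged 28.9 and 73.2 in the betaTry cells and 0.171 and 0 in the Jon99Fii cells.

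A smaller group went with Jon99Fii. With the same limit, 9 genes correlated with Jon99Fii in both libraries, 7 of them in the peptidase and carbohydrase lists. Since betaTry and Jon99Fii were themselves negatively correlated, the opposite sign of these genes with the other marker adds nothing to it. The 10 highest genes were Jon99Fi, CG17571, CG11911, CG11912, CG32368, Jon65Ai, CG31041, CG10477, Jon65Aii and lambdaTry, of which lambdaTry, the last, was below that limit. The serine peptidase gene CG17571 averaged 165 and 325 in the Jon99Fii cells and 0.298 and 0.0171 in the betaTry cells. Jon65Aii averaged 128 and 95.7 against 0.365 and 0.0163. CG10472, one of the 10 most abundant genes of the class, averaged 637 and 517 in the Jon99Fii cells and 1.99 and 3.46 in the betaTry cells. The median rank correlation with the UMI total was 0.22 and 0.34 for the betaTry group and -0.08 and 0.05 for the Jon99Fii group.

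Jon25Biii did not follow either side alone. It averaged 241 and 660 per 10000 in the Jon99Fii cells, from 12.7 to 484 at day 1 and from 9.28 to 2774 at day 3. In the betaTry cells it reached 367 at day 1 and 42.5 at day 3, and 6 of 21 and 2 of 20 of those cells were at or above 20. Its rank correlation with Jon99Fii was 0.30 and 0.64, and with betaTry -0.03 and -0.40. Jon99Cii and yip7, another serine peptidase gene, were high in both sets, with Jon99Cii at 188 and 214 in the betaTry cells and at 191 and 269 in the Jon99Fii cells.

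Genomic neighbours did not always share a side. In the Jon25B cluster of chromosome arm 2L (build BDGP6), Jon25Biii lies at 4949941 to 4950767, Jon25Bii at 4952243 to 4953136 and Jon25Bi at 4954279 to 4955144, all on the minus strand. Jon25Bi averaged 142 and 41.1 in the betaTry cells and 0.533 and 0.568 in the Jon99Fii cells, the opposite order of means to Jon25Biii. Over all cells of the class the rank correlation of Jon25Bi and Jon25Biii was 0.34 and -0.03. On arm 3L, Jon65Aiii at 6050757 to 6051690 and Jon65Aii at 6052321 to 6053215 are 630 bases apart, and their rank correlation was -0.11 and -0.49, or -0.46 and -0.80 in the deeper cells. Jon65Aiii averaged 339 and 333 in the betaTry cells and 46.3 and 29.2 in the Jon99Fii cells.

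The trypsin cluster of arm 2R also held genes of both sides. alphaTry, epsilonTry and betaTry are direct neighbours between 11344260 and 11347395, and neighbouring pairs of them correlated at 0.70 to 0.88. lambdaTry, at 11336840 to 11337791 in the same cluster, averaged 33.6 and 25.5 in the Jon99Fii cells and 0.0846 and 0.103 in the betaTry cells, and its correlation with betaTry was -0.24 and -0.70. Jon99Fii and Jon99Fi on arm 3R, 1034 bases apart, went together at 0.76 and 0.72. Reads can be split between copies of similar sequence, and no sequences were compared here. Values are therefore uncertain within Jon99Fi and Jon99Fii, within Jon99Ci, Jon99Cii and Jon99Ciii, within Jon65Aiii and Jon65Aiv, and within Amy-p and Amy-d.

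**Figure D2:**
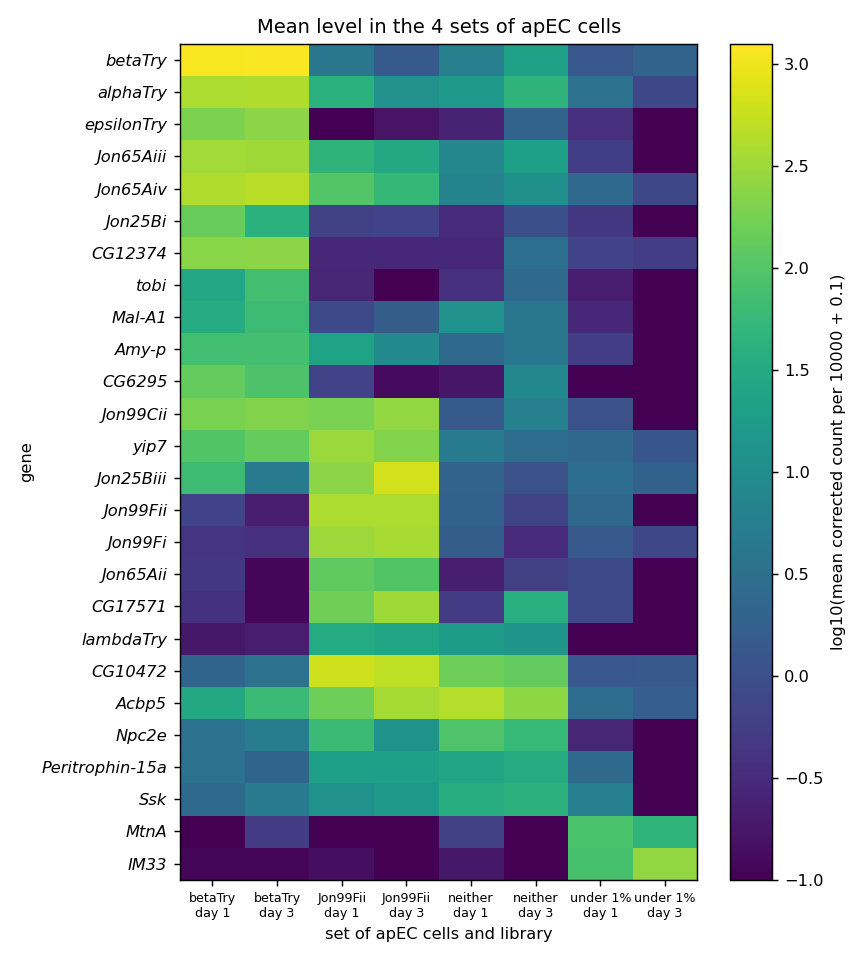
Mean level of 26 genes in 4 sets of apEC cells in each library, coloured by log10 of the mean corrected count per 10000 plus 0.1. betaTry, epsilonTry, Jon25Bi, CG12374 and tobi are bright in the betaTry columns, Jon99Fii, Jon99Fi, Jon65Aii and CG17571 in the Jon99Fii columns, and MtnA and IM33 in the columns of cells with under 1% of enzymes.

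The cells that passed neither marker limit were divided at 1% of total enzyme content, a limit chosen after the values were seen. The peptidase and carbohydrase lists together took a median of 18.4% of the corrected count at day 1 (0.0648 to 66.2%) and 34.4% at day 3 (0.0186 to 57.6%). In the betaTry cells the median was 33.2% and 37.8%, and in the Jon99Fii cells 33.5% and 30.1%. By contrast, 8 of 43 day 1 cells and 2 of 38 day 3 cells were under 1%. The other 8 and 6 cells that passed neither limit lay at or above 1% and at most 11.8%. They were not free of betaTry, which averaged 5.94 and 22.4 in them and reached 22.9 at day 1 and 77.4 at day 3.

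The 8 and 6 cells with some enzyme that passed neither limit had few genes far above the other sets. Of the 863 genes that averaged 1 or more in them in both libraries, 4 stood at least 4-fold above each of the other 3 sets, CG31266, CG8299, Acbp3 and CG15533. CG31266 and CG8299 reached 1 per 10000 in 1 cell of each library. Of 12 lipid genes averaging 1 or more in the class in both libraries, 7 were above the betaTry cells in both and 4 below in both. Against the Jon99Fii cells, 5 were above in both and 3 below in both. No share over all genes was set beside these counts, and nothing is read from them. Ssk averaged 35.3 and 42.9 in them, against 2.50 and 5.05 in the betaTry cells and 11.8 and 16.0 in the Jon99Fii cells. Acbp3, an acyl-CoA binding protein gene, averaged 54.1 and 41.1 against 0 and 0 in the betaTry cells and 3.14 and 0.847 in the Jon99Fii cells. Npc2e, of the sterol-binding Npc2 family, averaged 92.4 and 55.3 against 3.59 and 5.28 in the betaTry cells. In the Jon99Fii cells Npc2e averaged 62.3 and 12. Peritrophin-15a, a gene of the chitin-bound lining of the gut lumen, averaged 26.2 and 34.0 against 3.27 and 2.03 in the betaTry cells. The Jon99Fii cells lay closer, at 20.4 and 20.3. The lipid gene CG6295 went the other way, at 0.0802 and 8.08 against 136 and 88.6 in the betaTry cells. Acbp2 was slightly lower at day 1 and higher at day 3, at 41.0 and 40.1 against 44.0 and 29.6. The median depths of these cells were 20424 and 23883 UMIs.

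The cells with under 1% of enzymes held few enzyme transcripts by the rule that set them apart. Their betaTry and Jon99Fii levels, at most 4.86 and 11.3, follow from that rule and do not bear on the label. nub was above 0 in 2 of the 8 day 1 cells and 0 of the 2 day 3 cells. Other enterocyte markers were mixed, with Ssk at 5.69 and 0 against 2.50 and 5.05 in the betaTry cells. Tsp2A was at 2.175 and 0 against 2.06 and 3.80. In the cells with under 1% of enzymes, 854 genes averaged 1 or more in both libraries. Of these, 103, or 12.1%, stood at least 4-fold above each of the other 3 sets in both, a count that rests on 8 and 2 cells. By the same rule 33 of 618 genes (5.34%) stood above in the betaTry cells and 19 of 572 (3.32%) in the Jon99Fii cells. In the cells with some enzyme that passed neither limit, 4 of 863 (0.46%) did. MtnA, a metallothionein that binds metal ions, averaged 85.8 and 48.7 in them, and all 5 day 1 cells and 2 day 3 cells at or above 10 for MtnA were among them. These cells were not alike: of the 8 at day 1, 4 were at or above 10 for IM33, 2 for Uro, and 1 for neither MtnA nor IM33. IM33 averaged 80.1 and 274, and Idgf4, of the chitinase-like growth factor family, 30.8 and 50.3. Their median unspliced share was 3.75% and 3.23%, against 1.01% and 0.832% in the betaTry cells. Their median depth, 13896 and 14509 UMIs, was the lowest of the 4 sets in both libraries. Their median mitochondrial share was 1.85% and 0.792%, against 0.332% and 0.78% in the betaTry cells. No cell type was given to them here. The other cell type markers named above were low in the class as a whole, but class means do not speak for so few cells. The cells with under 1% of enzymes are named apEC in the annotation and stay in all means below unless stated.

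**Figure D3:**
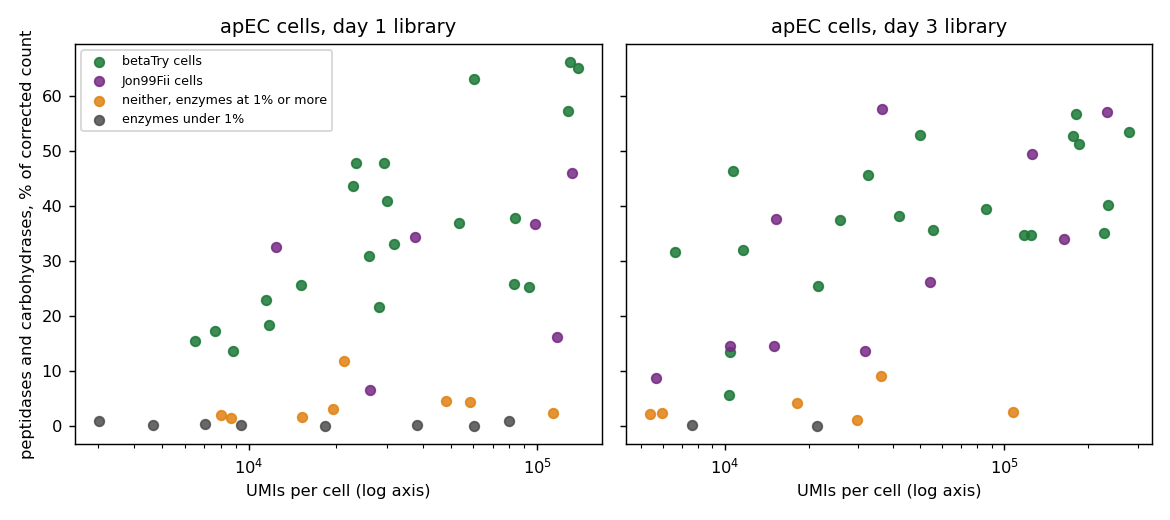
Share of the corrected count in the peptidase and carbohydrase lists against the UMI total of each apEC cell (log axis), by library and set. The 8 day 1 cells and 2 day 3 cells under 1% include cells of high depth, and the betaTry and Jon99Fii cells reach 66.2% and 57.6%.

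The digestive genes stood far above their level in mEC and in the ISC and EB classes. Of 16 Jonah genes, 14 reached 1 per 10000 in at least 1 library, with summed means of 816 and 1136 against 109 and 140 in mEC and 4.61 and 1.17 in the ISC and EB classes. Of 12 trypsin genes in the table, 10 did so, with sums of 880 and 1013 against 19.6 and 19.9, and 1.72 and 0.808. Of 25 carbohydrase genes, 15 did so, with sums of 134 and 208 against 1.18 and 1.75, and 0.792 and 0.663. In mEC the 4 peptidase lists together took a median of 0.338% and 0.185% of the count, and ran from 0.082 to 12.6% and from 0.043 to 40.9%. In the anterior and posterior cells the medians were 16.8% and 30.7%, with ranges of 0.062 to 64.4% and 0.019 to 57.1%. All mEC cells thus lay within the range of the anterior and posterior cells, and the medians lay far apart.

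Against mEC, 167 of 968 genes, or 17.3%, were at least 4-fold higher in the anterior and posterior enterocytes in both libraries, and 55, or 5.68%, were at least 4-fold lower. A gene entered the comparison through the side where it was high, so nothing is read from how many members of a list passed. betaTry stood at 553 and 631 against 0.824 and 1.12 in mEC, a mean log2 difference of 9.12, followed by CG12374 (8.70), epsilonTry (8.58), CG6295 (8.14) and CG7542 (7.66). CG6295 was taken here as a lipase gene and averaged 66.6 and 47.9 against 0.113 and 0.0899. Jon65Aiii and Jon65Aiv were the Jonah genes that also had high means in mEC, at 61.2 and 44.8 and at 43.4 and 75.3. A minority of mEC cells set these means. In mEC all Jonah and trypsin genes together took a median of 0.233% and 0.125% of the count, against means of 1.29% and 1.6%.

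The genes lower than in mEC included markers of the acid-secreting region. Vha100-4, a subunit of the proton pump, averaged 0.0170 and 0 against 49.6 and 39.4. CG5767 (-11.05) and CG8661 (-10.98) had the largest differences, with CG5767 at 0.362 and 0.0401 against 693 and 419. CAH1, a carbonic anhydrase, averaged 5.73 and 2.74 against 48.9 and 17.5. Of 10 metal handling genes compared, 4 were lower and 1 higher than in mEC, beside 5.68% lower and 17.3% higher over all 968 genes. Nothing is read from this count. The trypsin thetaTry, a middle midgut marker, averaged 4.82 at day 1 and 0.201 at day 3 against 8.83 and 7.52, and 96.5% of its day 1 sum lay in 1 cell, which was also a Jon99Fii cell.

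Several genes stood at similar levels in both kinds of enterocyte. Ssk was at 10.5 and 13.6 against 15.7 and 20.4 in mEC, and the detoxification gene GstD1 at 35.4 and 45.4 against 53.1 and 58.5. CG13315, the 13th most abundant gene of the class, was at 103 and 66.4 against 92.7 and 36.6, and at 0.182 and 0.141 in the ISC and EB classes. The median log2 difference over the 968 genes was -0.09.

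Against the mean of the 5 ISC and EB classes, 254 of 1228 genes, or 20.7%, were at least 4-fold higher in both libraries and 94, or 7.65%, were at least 4-fold lower. Acbp5, an acyl-CoA binding protein gene and the 6th most abundant gene of the class, averaged 120 and 166 against 8.89 and 9.23. Of those 5 classes EB2 was the highest for Acbp5, at 34.35 and 35.5.

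The lowest genes relative to the ISC and EB classes were Df31, E(spl)mbeta-HLH, hdc, Tet, CG17778, Cpr51A, E(spl)malpha-BFM, esg, Myc and path. esg, the transcription factor that marks stem cells and enteroblasts, averaged 0.496 and 0.392 against 4.71 and 5.01. E(spl)mbeta-HLH, a target of Notch signalling, averaged 0.906 and 0.569 against 9.48 and 10.4. The authors' depth correction gives values above 0 to shallow cells without a UMI. In the 22 enterocytes of each library above the median depth esg averaged 0.134 and 0.0299, with 2 cells above 0 in each library, against 4.50 and 5.11 in the ISC and EB cells at that depth. With those deeper cells the count of genes at least 4-fold lower was 278 instead of 94, and with a pseudocount of 1 it was 9.

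Traces of the enzymes were present in every other class. In the 5 ISC and EB classes mean levels of betaTry lay between 0.813 and 1.22 per 10000 in the day 1 library and between 0.331 and 0.605 in the day 3 library. Those of Jon25Biii lay between 0.866 and 1.28, and between 0.0679 and 0.199. The ratio of Jon25Biii to betaTry lay between 0.921 and 1.35 in the 8 classes other than both kinds of named enterocyte at day 1, and was 0.119 in the anterior and posterior enterocytes. At day 3 it lay between 0.205 and 0.680 in those classes and was 0.279 in the enterocytes. At day 1 the traces thus held more Jon25Biii per betaTry than the captured enterocytes did. Whether the traces are RNA free in the droplets or the classes' own transcripts was not tested. With Jonah and trypsin genes at or above 100 per 10000 as the limit, 31 of 43 and 35 of 38 apEC cells, 9 of 29 and 7 of 22 mEC cells, 5 of 380 and 0 of 134 EC-like cells and none of the ISC and EB cells passed.

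**Figure D4:**
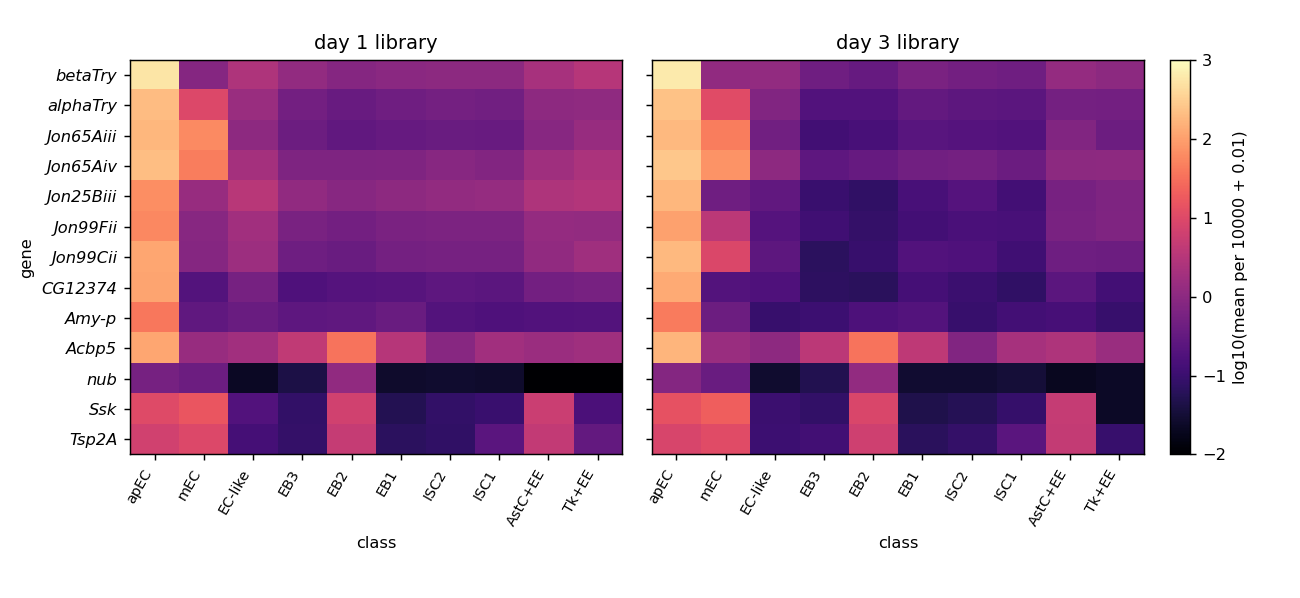
Mean level of 10 digestive and lipid genes and 3 enterocyte genes in 10 annotated classes, by library, coloured by log10 of the mean corrected count per 10000 plus 0.01. betaTry is bright in apEC alone (553 and 631 per 10000), while Jon65Aiii, Jon65Aiv and Ssk are bright in mEC as well. The mEC means of Jon65Aiii and Jon65Aiv were set by a minority of mEC cells.

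The enterocytes also differed in how much unspliced RNA they held. The unspliced share of UMIs had a median of 1.12% at day 1 and 0.843% at day 3, against 0.992% and 1.38% in mEC and 4.22% to 9.13% in the 5 ISC and EB classes. Gene structure moved with it: of the 20 most abundant genes of the class, 10 had 1 exon in every annotated transcript, and of the 244 annotated genes higher than in the ISC and EB classes 58 did, or 23.8%. Over all 1166 annotated genes of that comparison the share was 10.8%. A gene with 1 exon gives no unspliced reads, and the part of gene structure in the low share was not tested. The ribosomal share had medians of 20.8% and 20.6%, against 45.2% or more in each ISC and EB class.

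Between the ages, 48 of 1021 genes, or 4.7%, were at least 2-fold higher at day 3, and 92, or 9.01%, were at least 2-fold lower. Without the highest cell of each library for each gene, 41 of the higher (4.02%) and 58 of the lower (5.68%) stayed past the limit. With levels averaged as log values, which give single high cells less weight, 35 genes were higher and 1 was lower. Of the 10 higher genes named below 4 then stayed past 2-fold, and of the 10 lower genes none. The median log2 difference over all 1021 genes was -0.15. Of 14 Jonah genes compared 4 were higher and 2 lower, with a median of 0.70. Of 15 carbohydrases 3 were higher and 3 lower, with a median of 0.77, and of 10 trypsins 1 was higher and 2 were lower, with a median of 0.15. Neither lower trypsin stayed past 2-fold without the highest cells, and the higher one did. The trypsin median was -0.07 without the cells under 1% of enzymes, an alternative added after the data were seen.

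The 3 marker genes differed in how they stood between the ages. betaTry was at 553 and 631 (log2 0.19), and Jon99Fii at 56.5 and 102 (0.86). Jon25Biii was at 65.7 and 176 (1.42), but 1 day 3 cell held 41.4% of its day 3 sum, and the difference was 0.93 without the highest cells. With mean log values it was 0.06. In the betaTry cells its log2 difference was -3.65, but its medians were 1.87 and 1.998, with 6 of 21 and 2 of 20 cells at or above 20. In the Jon99Fii cells its mean was 241 and 660, with medians of 252 and 392 and ranges that overlap. The level of betaTry within its own cells (1128 and 1192) and of Jon99Fii within its own cells (397 and 389) differed little between the libraries. Those sets were cut on the same genes, which leaves out cells with lower levels, so nothing is read from this likeness. The share of cells with Jon99Fii was 14.0% and 26.3%, with intervals that overlap.

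The 10 genes with the largest differences toward day 3 that stayed past 2-fold without the highest cells were Jon66Ci, Try29F, Drsl2, Jon66Cii, CG13325, CG32284, CG17109, CG17571, CG31704 and CG16749. Jon66Ci was at 0.479 and 30.3 (log2 5.71), with 80.1% of the day 3 sum in 1 cell and a difference of 4.04 without the highest cells. It went with the Jon99Fii cells, at 3.01 at day 1 (highest 8.79) and 114 at day 3 (from 0.526 through a median of 12.8 to 922), and was at 0.0883 and 0.297 in the betaTry cells. CG17571 was at 23.4 and 91.5 (1.96). The copper transporter gene Ctr1B was at 2.11 and 7.02 (1.69), and at 7.14 and 23.6 within the Jon99Fii cells.

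The 3 carbohydrase genes past 2-fold toward day 3 were tobi, Mal-A4 and Mal-A8, and the 3 past it toward day 1 were the mannosidase genes LManII, LManV and LManVI. LManII was at 2.76 and 0.115 (log2 -3.74). In the 16 day 1 cells that passed neither marker limit its median was 0 and its highest level 76.9. LManV and LManVI had 89.25% and 96.4% of their day 1 sums in 1 cell. All 3 mannosidase genes stayed past 2-fold without the highest cells. tobi was at 14.2 and 38.9 in the class (log2 1.44), and the betaTry cells had a median of 11.3 at day 1 (highest 140.5) and of 74.6 at day 3 (lowest 1.25, highest 187). The maltase gene Mal-A1 was at 19.1 and 35.6 (0.90), with medians of 28.5 and 58.1 in the betaTry cells. Mal-A8 was at 3.68 and 8.68 (1.21), and Mal-A4 at 1.31 and 3.76 (1.45). The amylase gene Amy-p was at 38.7 and 42.1 (0.12), while its median in the betaTry cells was 34.3 at day 1 and 4.13 at day 3. Ranges of single cells overlapped between the libraries for each of these genes.

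Some enzyme genes were lower at day 3. Jon25Bi was at 69.5 and 21.9 (log2 -1.66), and at 142 and 41.1 within the betaTry cells, where its median was 13.4 and 22.7, so that a few day 1 cells, up to 983, set the mean. Jon25Bii was at 18.5 and 2.99 (-2.58). LysX, a lysozyme gene, was at 22.2 and 3.02 (-2.83), with 77.5% of its day 1 sum in 1 cell.

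Among the genes furthest toward day 1 were several that rested on few cells. The 10 named by the same rule were LManVI, CG14292, CG33258, CG13309, CG3168, Phk-3, Mur18B, Alp2, LManV and Uro. LManVI, a lysosomal-type mannosidase gene, was at 5.76 and 0, with 96.4% of the day 1 sum in 1 cell. Uro, the urate oxidase gene known from the Malpighian tubules, was above 0 in 2 day 1 cells, at 60.1 and 11.0, and in no day 3 cell. Both of those cells were under 1% of enzymes. Without the cells under 1% of enzymes the genes lower at day 3 numbered 46 instead of 92, and the genes higher numbered 43 instead of 48. Of the 10 named genes 8 were then not past 2-fold, with CG14292 at -0.74, Phk-3 at -0.28, CG33258 and Mur18B at -0.12, and CG3168, CG13309, Alp2 and Uro at a log2 difference of 0. LManVI and LManV stayed past it.

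**Figure D5:**
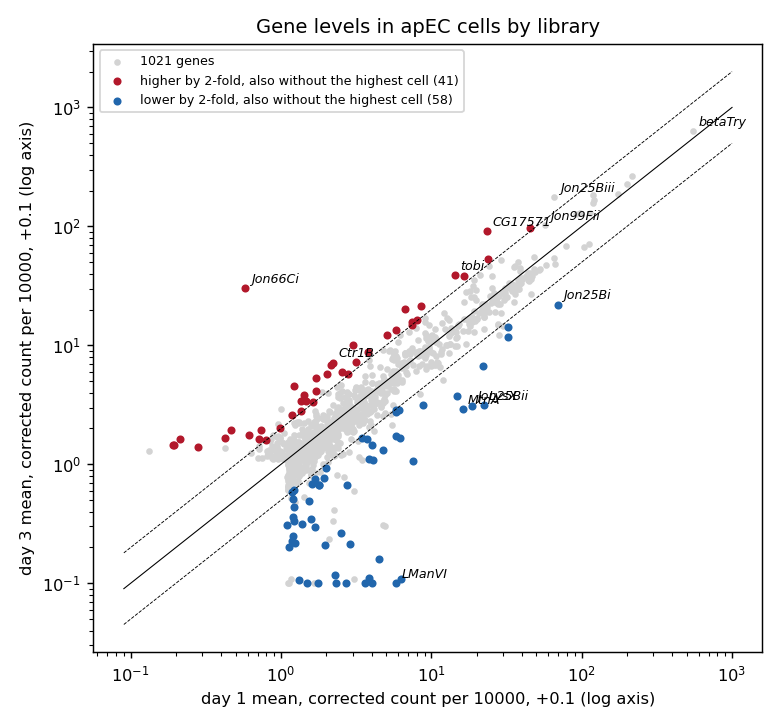
Mean level of 1021 genes in apEC cells of the day 1 and day 3 libraries, as corrected count per 10000 plus 0.1 on log axes, with lines of equality and of 2-fold difference. The 41 higher and 58 lower genes that stay past 2-fold without the highest cells are coloured; betaTry lies near equality, and Jon66Ci and LManVI lie far from it.

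For the other gene groups, counts past 2-fold are given beside 4.7% higher and 9.01% lower over all 1021 genes. Most of these lists are short, and nothing is read from their counts. Of 7 metal handling genes 2 were higher and 4 lower at day 3, of which 1 and 2 stayed past 2-fold without the highest cells. Of 6 insulin and nutrient response genes 0 were higher and 2 lower, of 3 gut immune genes 1 was higher and 1 lower, and of 19 detoxification genes 1 was higher and 1 lower. None of 7 brush border and junction genes passed. The ferritin genes Fer1HCH and Fer2LCH, which store iron, were both lower at day 3, at 29.8 and 14.4 (log2 -1.05) and at 27.9 and 12.2 (-1.19). Without the highest cells these differences were -0.73 for Fer1HCH and -0.82 for Fer2LCH, under 2-fold. Fer1HCH was at 16.2 and 15.4 in the betaTry cells and at 85.4 and 12.2 in the Jon99Fii cells, so its class difference lay mainly outside the betaTry cells. The hormone gene AstC was at 0.0313 and 1.19, with 95.5% of the day 3 sum in 1 Jon99Fii cell at 43.1. TotC, of the Turandot stress-response family, was at 17.9 and 15.4, and 52.0% and 84.9% of it lay in 1 cell of each library.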

How the data were processed

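Single-cell libraries of 1 day 1 and 1 day 3 midgut were used. Per the submitters' processing notes, reads were processed with Cell Ranger 6.0.1 on build BDGP6. The deposited expression table held natural log values; their exponentials less 1 were whole numbers that summed in every cell to the deposited score for the corrected total, so they are depth-corrected and not raw counts. The deposited cell table gave counts of spliced, unspliced and ambiguous UMIs per cell, percent of mitochondrial and ribosomal reads, and, as fraction columns by the authors, label transfer scores and doublet neighbour shares. All deposited cells carried a singlet call; no further doublet caller or cell filter was applied.

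From these values the corrected count per 10000 of the cell's total was computed in Python 3.11.15 (pandas, NumPy), averaged over the cells of a class and library, and compared as log2 ratios with 0.1 added. Ages were compared over genes averaging 1 per 10000 or more in either library, and classes over genes reaching this on 1 side in both libraries; 2-fold and 4-fold were the limits. Progenitor levels are the mean of 5 class means. Levels of depth-corrected counts can exceed 0 without a UMI in shallow cells, and a few abundant genes lower all others in a cell. Intervals are exact binomial at 95% and a count of 0 is limited at 3 counts; both cover counting error only, since cells are not replicates. Gene positions and exons come from Ensembl release 115 on BDGP6, which matched 95.1% of gene names. The measures were also run on simulated cells, where each gene varied around a mean shared by all cells of a library. That simulation held no genes confined to few cells, so it does not bear on such genes here.

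Named genes were the 3 markers, genes of the functional lists, the 20 highest genes, the 10 furthest in each direction for each comparison, and, by a rule added after the values were seen, the 10 with the highest rank correlation with betaTry or Jon99Fii. The members and lists were chosen with earlier results of these data known. Alternatives changed the pseudocount, the low-value filter, the averaging, the depth limit, the highest cells and the progenitor mean.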

Additional observations from a re-analysis of the deposited data

How the results depend on the processing

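No paired analysis was possible because each age has 1 library. With a pseudocount of 1 per 10000, the genes higher and lower at day 3 numbered 26 and 51, those higher and lower than in mEC 79 and 36, and those higher and lower than in the ISC and EB classes 118 and 9. With a filter at 5 per 10000 the same counts were 23 and 23, 73 and 36, and 102 and 14, since fewer genes were compared. With no filter, 94 and 329 genes were higher and lower at day 3. With mean log values, 1 gene was lower at day 3, 65 were higher than in mEC and 98 higher than in the ISC and EB classes. Without the highest cell of each gene, 40 were lower at day 3, where the level filter was also applied without those cells and so kept fewer genes; the 58 given above are among the genes first compared. With cells of at least 10000 UMIs, 194 were lower than in the ISC and EB classes. Of alternatives added after the data were seen, cells above the median depth gave 79 genes higher at day 3 and 278 lower than in the ISC and EB classes. Leaving out cells under 1% of enzymes gave 46 lower at day 3 and 178 lower than in the ISC and EB classes. The median age difference of the carboxypeptidases and aminopeptidases, -0.04, turned to 0.0812 with summed counts, 0.11 without the highest cells, 0.23 with mean log values and 0.33 above the median depth. That of the lipid genes, -0.47, turned to 0.0245 with mean log values, and that of the trypsins, 0.15, to -0.0683 without the cells under 1% of enzymes. Except where the construction is named, the cause was not tested. Of the recomputed differences of single genes 86 moved by over 1.5 times or changed sign and 98 did not, with Jon66Ci at 1.40, CG17571 at 0.87 and Jon25Biii at 0.06 under mean log values. The other 91 recomputed counts, medians and shares kept their direction and stayed within 1.5 times; 1 library per age and 81 cells limit all of them.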
